A study of Mus musculus with 6 samples.

Results

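The 10 genes described here act in autophagy, by which cells enclose their own material in a membrane and digest it in lysosomes, and in mitophagy, the form of autophagy that removes mitochondria. They were taken by gene name from the deposited expression table, as 10 of its 54532 genes: Pink1, Bnip3l, Fundc1, Sqstm1, Optn, Map1lc3a, Map1lc3b, Gabarapl1, Gabarapl2 and Ulk1. Each name had 1 row, and all 10 were among the 12654 genes with a mean of at least 0.5 FPKM (fragment counts scaled to gene length and to the depth of the library), which were tested. RNA sequencing gave their transcript levels in CD8 T cells of mice, purified from spleen and lymph nodes and then stimulated in culture for 3 days with beads carrying antibodies to CD3 and CD28. There were 3 samples of the WT genotype (WT) and 3 of the PTPMT1 KO genotype (KO). All 6 samples had the same stimulation, and PTPMT1 is a phosphatase of the mitochondrial inner membrane needed to make the lipid cardiolipin. The sources used here do not state how the knockout was made, in which cells it acts, or the age of the mice. Nothing states that the samples came from separate mice, so each p-value speaks only of sample-to-sample spread, part of which can be technical.

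Autophagy starts with the kinase ULK1, and the growing membrane is coated with small proteins of the ATG8 family, the LC3 and GABARAP proteins, which are attached to a lipid. Mitochondria are marked for removal in different ways. PINK1 is a kinase that builds up on mitochondria that have lost their membrane potential and there marks ubiquitin for recognition by adaptors such as OPTN and SQSTM1 (p62). BNIP3L (NIX) and FUNDC1 sit in the outer mitochondrial membrane and bind ATG8 proteins directly. In T cells autophagy is known for its part in the survival of activated and memory cells. Transcript levels do not measure the rate of autophagy.

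Rebuilt read totals were 14932604 to 16819913 per library. Ptpmt1 was at 3.75, 3.84 and 4.13 FPKM in WT and 1.0004, 1.58 and 1.504 FPKM in KO, lower in each KO sample (limma adjusted p = 0.0884), though 46.1% of the 50-base windows of its transcripts also lie in overlapping genes such as Kbtbd4. The CD8 T cell markers Cd8a, Cd8b1, Cd3d, Cd3e, Cd3g and Cd2 summed to 1208 to 1599 FPKM in WT and 785 to 1463 FPKM in KO. The sum was lowest in KO replicate 3, as were Cd8b1, Cd3d, Cd3g and Cd2 singly. Cd8a and Cd3e were not, at 135, 109 and 145 FPKM and at 27.1, 20.4 and 31.9 FPKM in KO replicates 1 to 3. Of the CD4 T cell markers, Cd4 was at 0.439, 0.565 and 1.86 FPKM in WT and 0, 0.0567 and 0.137 FPKM in KO. These KO values lay below every WT sample. Zbtb7b went the other way, at 0.655 to 1.22 FPKM in WT and 2.02, 1.62 and 5.44 FPKM in KO, above every WT sample. The B cell markers summed to at most 25.0 FPKM. KO replicate 3 stood apart from the other KO libraries. It had no reads of the female-specific Xist and 1837 reads of the Y-linked Ddx3y, while the other 5 libraries had 3513 or more and 0. It also had the highest summed markers of gamma-delta T cells, 52.3 FPKM against 9.01 to 21.1 FPKM in the others, the highest level of the mast cell gene Cpa3, 25.9 FPKM against 3.05 to 7.08 FPKM (the neutrophil genes S100a8 and S100a9 were not highest there, and Ly6g was at 0 in all), and the lowest share of mitochondrial reads, 2.38%. KO replicate 2 had the highest share, 7.53%, against 3.38% to 4.76% in the remaining 4 libraries. By Xist and Ddx3y, KO replicate 3 came from a male and the other libraries from females, so only the KO group mixed the sexes.

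Among the 10 genes, all KO samples exceeded all WT samples for Gabarapl1, and lay below them for Pink1, Map1lc3b and Ulk1. The other 6 genes had overlapping groups. At a limma Benjamini-Hochberg adjusted p under 0.05, 0 of the 10 were called, against 0.0395% of all genes tested. At an unadjusted p under 0.05 in the same limma fit, 1 was higher in KO (11.5% of all genes) and 3 were lower (10.2% of all genes). Groups did not overlap for 1 higher gene, where 14.5% of all genes were higher in this way, and for 3 lower genes, where 13.3% of all genes were lower. The median log2 fold change of the 10 genes was -0.28, and that of all genes tested was 0.03. Log2 fold changes here are differences of mean log2(FPKM + 0.5), KO minus WT, which understate the change of low genes. In whole cultures, fewer cells with a transcript and less transcript per cell cannot be told apart.

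**Figure D1:**
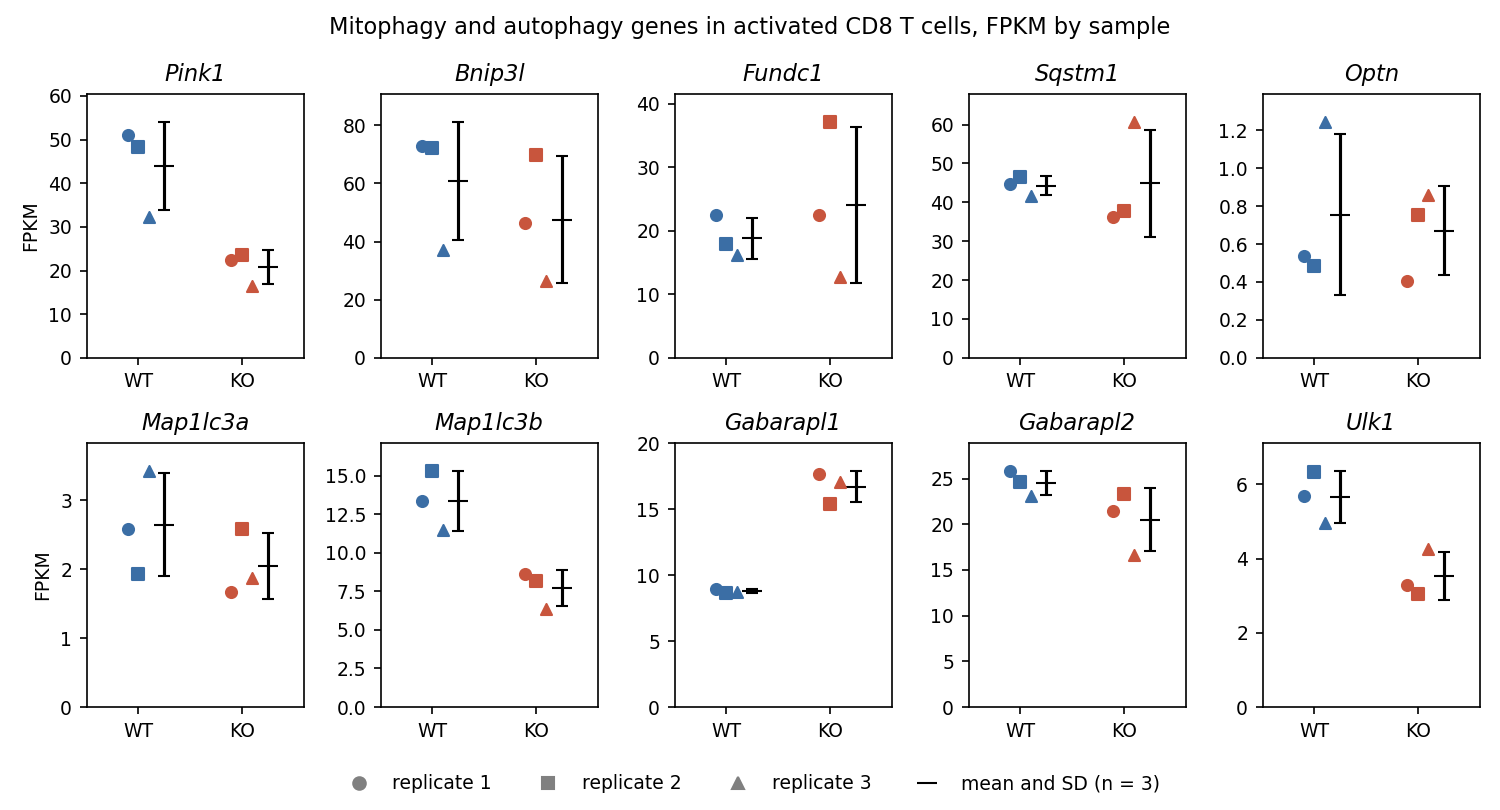
FPKM of each gene in the 3 WT and 3 KO samples, with marker shape for the replicate number and a bar for the mean and SD; each panel has its own linear axis from 0. WT and KO samples are separate for Pink1, Map1lc3b, Gabarapl1 and Ulk1, and overlap for the other 6 genes.

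Pink1 (ENSMUSG00000028756, mm10 chromosome 4, 138313409 to 138326307, minus strand) had the largest difference of the 10 genes. Its values were 51.1, 48.3 and 32.3 FPKM in WT replicates 1 to 3 and 22.3, 23.6 and 16.5 FPKM in KO replicates 1 to 3. All KO samples lay below the lowest WT sample, which was WT replicate 3. The means were 43.9 ± 10.2 FPKM in WT and 20.8 ± 3.79 FPKM in KO (SD, n = 3 each), 2.11-fold higher in WT. The log2 fold change was -1.05 (SE 0.24, 95% interval -1.61 to -0.49, limma adjusted p = 0.107), which missed the threshold. By an exact 2-sided permutation test over the samples p was 0.1, and 3 against 3 samples can give no smaller value. Pink1 was covered by 796 to 2237 reads per library, so counting alone gives an SD of at most 3.54%.

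The receptors of the outer mitochondrial membrane gave no separation of the groups. Bnip3l (ENSMUSG00000022051, chromosome 14, 66985239 to 67008877, minus strand) had the highest mean FPKM of the 10 genes. It was at 73.0, 72.1 and 37.3 FPKM in WT and 46.5, 69.9 and 26.3 FPKM in KO. KO replicate 2 was nearly as high as WT replicates 1 and 2, and the samples numbered 3 were the lowest of both groups. The log2 fold change of -0.39 (SE 0.41, 95% interval -1.37 to 0.58, limma adjusted p = 0.609) is smaller than its error. Reads shared with its processed copy Bnip3l-ps (20.8% of 50-base windows) make its level uncertain. Without KO replicate 3 the log2 fold change was -0.03, and without KO replicate 2 it was -0.72.

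Fundc1 (ENSMUSG00000025040, chromosome X, 17556564 to 17572325, minus strand) was at 22.5, 17.9 and 16.1 FPKM in WT and 22.4, 37.1 and 12.7 FPKM in KO. The KO samples held both the highest and the lowest value of the 6. KO replicates 2 and 3, at the ends of that range, were also at the ends of the range in mitochondrial reads. They were at the ends in FPKM summed over all genes as well, at 605554 and 357607. KO replicate 3 was also the library without reads of Xist. The part of these traits in the result was not tested. In log2 terms KO was 0.24 above WT (SE 0.37, 95% interval -0.64 to 1.11, limma adjusted p = 0.743). Its sign turned without KO replicate 2, to -0.14, and it was 0.62 without KO replicate 3.

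The cargo adaptors differed widely in level. Sqstm1 (ENSMUSG00000015837, chromosome 11, 50199366 to 50210827, minus strand), whose product links ubiquitin-marked cargo to ATG8 proteins, was at 44.6, 46.6 and 41.6 FPKM in WT and 36.1, 37.8 and 60.7 FPKM in KO. KO replicates 1 and 2 lay below every WT sample and KO replicate 3 above every WT sample. The KO mean of 44.9 ± 13.7 FPKM (SD, n = 3) had a wider spread than the WT mean of 44.3 ± 2.52 FPKM (SD, n = 3). The log2 fold change of -0.02 (95% interval -0.56 to 0.52, limma adjusted p = 0.968) became -0.26 without KO replicate 3. Exons of Sqstm1 overlap those of Mrnip on the opposite strand, which was at 2.30 to 4.07 FPKM, so reads could be split between them. Optn (ENSMUSG00000026672, chromosome 2, 5020642 to 5064051, minus strand) was near the filter on low values, at 0.537, 0.486 and 1.24 FPKM in WT and 0.406, 0.751 and 0.856 FPKM in KO. These values rest on 24 to 82 reads per library, and counting alone gives an SD of 20.4% at the lowest. Its log2 fold change was -0.07 (95% interval -0.87 to 0.73, limma adjusted p = 0.919).

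The ATG8 family held the only member that was higher in every KO sample. Gabarapl1 (ENSMUSG00000030161, chromosome 6, 129533160 to 129542346, plus strand) was at 8.98, 8.67 and 8.74 FPKM in WT and 17.7, 15.4 and 17.04 FPKM in KO. The WT samples were close to each other, and the lowest KO sample was well above the highest WT sample. Means were 8.80 ± 0.163 FPKM in WT and 16.7 ± 1.18 FPKM in KO (SD, n = 3 each), 1.90-fold higher in KO. This is 0.89 in log2 (SE 0.14, 95% interval 0.56 to 1.22, limma adjusted p = 0.0884), with an exact 2-sided permutation p of 0.1, again the smallest possible. KO replicate 3, which stood apart for several other genes, lay between the other KO samples. The noncoding gene 1700101I11Rik overlaps exons of Gabarapl1 on the opposite strand and had at most 0.0890 FPKM in any library. Of the 50-base windows of Gabarapl1, 23.1% also lie in that gene. Whether reads of Gabarapl1 were left uncounted there was not tested.

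Map1lc3b (ENSMUSG00000031812, chromosome 8, 121590361 to 121598760, plus strand), which encodes the LC3B protein commonly used to track autophagy, went the other way. It was at 13.3, 15.3 and 11.4 FPKM in WT and 8.60, 8.19 and 6.35 FPKM in KO, with no overlap. The means of 13.4 ± 1.93 FPKM in WT and 7.72 ± 1.197 FPKM in KO (SD, n = 3 each) made it 1.73-fold higher in WT. Its log2 fold change was -0.76 (SE 0.19, 95% interval -1.19 to -0.32, limma adjusted p = 0.110). A processed copy of this gene, Gm6055, was counted separately at 20.3 to 35.8 FPKM. Counting its value with Map1lc3b, an alternative chosen after seeing the data, gave a log2 fold change of -0.71.

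The remaining ATG8 genes had overlapping groups. Gabarapl2 (ENSMUSG00000031950, chromosome 8, 111940703 to 111953612, plus strand) was at 25.8, 24.6 and 23.1 FPKM in WT and 21.4, 23.3 and 16.7 FPKM in KO. Only KO replicate 2 reached into the WT range, and the log2 fold change was -0.27 (95% interval -0.68 to 0.15, limma adjusted p = 0.409). Map1lc3a (ENSMUSG00000027602, chromosome 2, 155276297 to 155278073, plus strand), the LC3A gene, was low, at 2.59, 1.93 and 3.42 FPKM in WT and 1.67, 2.58 and 1.88 FPKM in KO. It rests on 31 to 71 reads per library and had a log2 fold change of -0.30 (95% interval -0.89 to 0.29, limma adjusted p = 0.516). Gabarap, the family's remaining gene in this comparison and no member of the 10, was at 78.2, 78.7 and 63.2 FPKM in WT and 54.2, 73.1 and 47.1 FPKM in KO.

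Because a share within a library does not depend on how that library was scaled, the FPKM of the 5 ATG8 genes were also expressed as shares of their sum. Gabarapl1 took 6.97%, 6.71% and 7.95% of the family in WT and 17.1%, 12.6% and 19.1% in KO. Map1lc3b took 10.3%, 11.8% and 10.4% in WT and 8.30%, 6.68% and 7.14% in KO. Per length, Map1lc3b was thus above Gabarapl1 in each WT library and below it in each KO library. In rebuilt reads, which are not per length, Map1lc3b stayed above Gabarapl1 in KO as well, with 1018, 808 and 862 reads against 561, 407 and 619. The shift was 9.06 percentage points for Gabarapl1 and -3.49 for Map1lc3b, each with an exact 2-sided permutation p of 0.1, the smallest possible, and 0.25 after adjustment over the 5 genes. Gabarap had the largest share in every library, with means of 59.7 ± 1.91% in the WT group and 54.9 ± 4.05% in the KO group (SD, n = 3 each; exact permutation p = 0.2). Gabarapl2 kept 19.03% to 21.02% in WT and 18.7% to 20.7% in KO, and Map1lc3a 1.49% to 3.11% and 1.61% to 2.11%. The summed FPKM of the family was 122.7 ± 11.01 in WT and 105.1 ± 16.8 in KO (exact permutation p = 0.2).

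**Figure D2:**
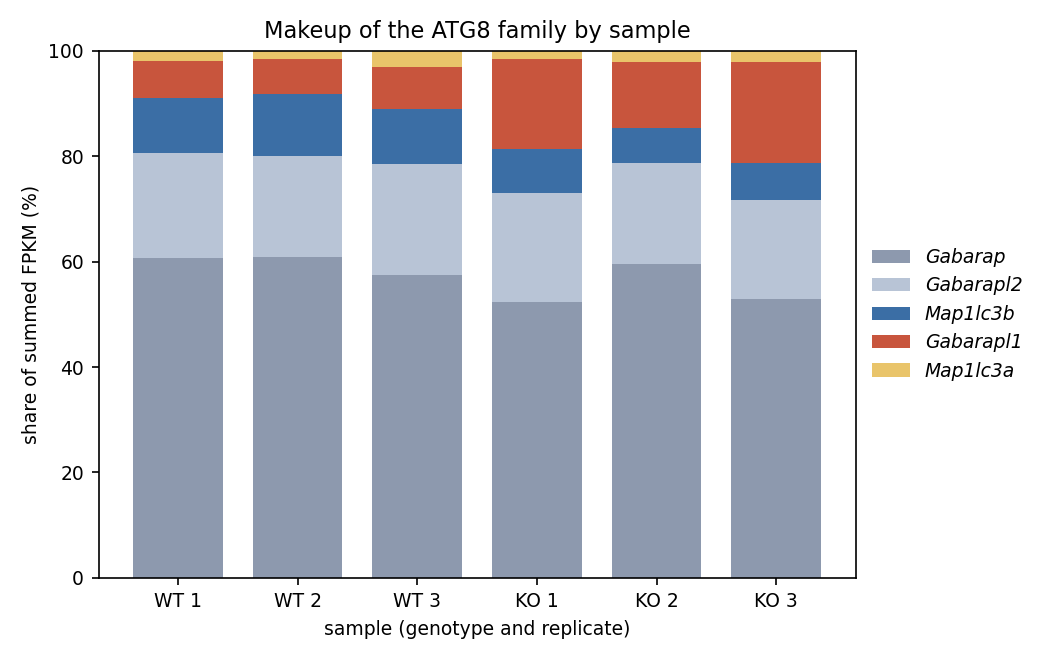
Share of each ATG8 gene in the summed FPKM of the 5 genes, in percent, for each sample. Gabarapl1 fills 6.71% to 7.95% of the WT bars and 12.6% to 19.1% of the KO bars, and Map1lc3b 10.3% to 11.8% of the WT bars and 6.68% to 8.30% of the KO bars.

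Ulk1 (ENSMUSG00000029512, chromosome 5, 110784488 to 110810097, minus strand), the kinase that starts autophagy, was at 5.69, 6.34 and 4.95 FPKM in WT and 3.28, 3.04 and 4.25 FPKM in KO. The groups did not overlap, and KO replicate 3 was the KO sample closest to WT. Means of 5.66 ± 0.697 FPKM in WT and 3.53 ± 0.642 FPKM in KO (SD, n = 3 each) gave a level 1.61-fold higher in WT. In log2 the difference, KO minus WT, was -0.62 (SE 0.18, 95% interval -1.06 to -0.18, limma adjusted p = 0.139).

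The samples of each group were not equally spread for these genes. KO replicate 3 had the lowest FPKM of the 6 libraries for 5 of the 10 genes (Pink1, Bnip3l, Fundc1, Map1lc3b and Gabarapl2). It was the highest KO library for Sqstm1, Optn and Ulk1. WT replicate 3 was the lowest WT library for 7 of the 10 genes. These libraries also had the lowest FPKM summed over all genes, 357607 in KO replicate 3 and 364031 in WT replicate 3. The sum was 605554 in KO replicate 2, the highest. The matching shares over all genes were not counted, so these counts may not be particular to the 10 genes. Within KO, the coefficient of variation (SD over mean) ran from 7.07% for Gabarapl1 to 50.999% for Fundc1, and within WT from 1.85% for Gabarapl1 to 56.1% for Optn.

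Without KO replicate 3, limma called 2 of the 10 genes at an adjusted p under 0.05, Gabarapl1 (log2 fold change 0.87, adjusted p = 0.0344) as higher and Ulk1 (-0.75, adjusted p = 0.0425) as lower. In that fit 13.7% of all genes were called, 8.12% as higher and 5.58% as lower in KO. Leaving out any other single library, 0 of the 10 were called. With each library rescaled to the same total FPKM, the log2 fold changes shifted as a whole, their median over all genes from 0.03 to -0.20 and over the 10 genes from -0.28 to -0.53. Pink1 (-1.32), Map1lc3b (-1.02), Ulk1 (-0.86) and Gabarapl2 (-0.53) then had an unadjusted p under 0.05 as lower, against 12.9% of all genes. Gabarapl1 (0.63) did so as higher, against 3.83% of all genes. Fundc1 was at -0.03 on this scale, so its sign depended on the scaling as well.

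**Figure D3:**
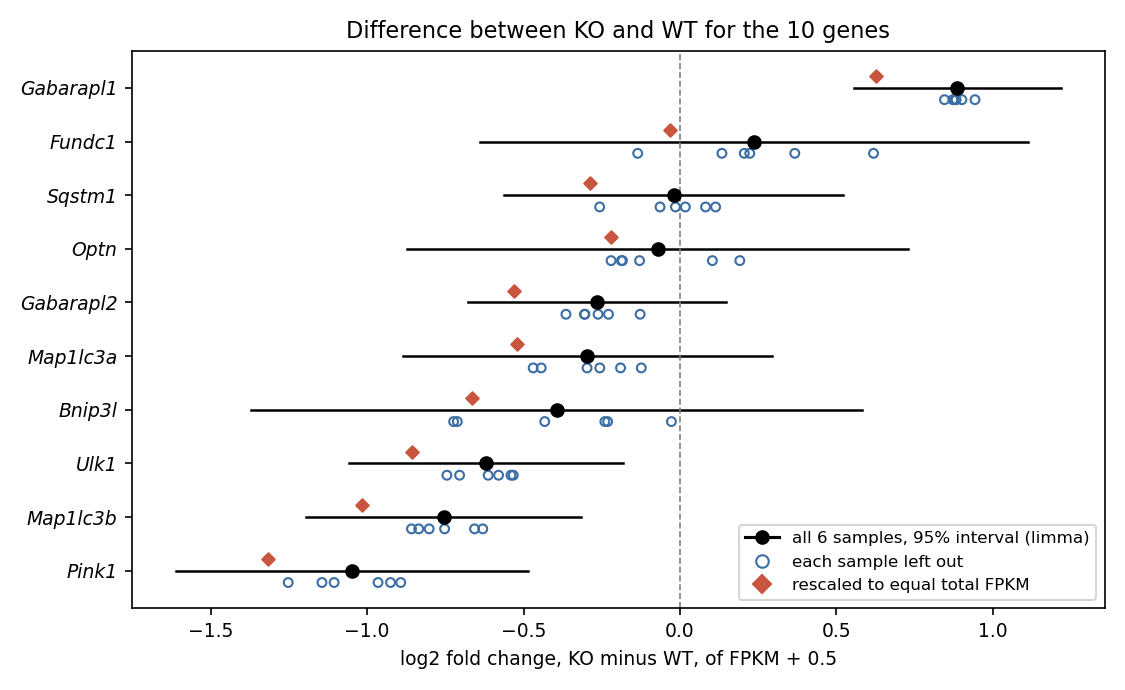
Log2 fold change of FPKM + 0.5 (KO minus WT) for each gene: black points and lines are all 6 samples with the limma 95% interval, open circles the values with each sample left out, and diamonds the values after rescaling to equal total FPKM. Points for Pink1, Map1lc3b and Ulk1 all lie below 0 and those for Gabarapl1 above 0, while those for Fundc1, Sqstm1 and Optn fall on both sides.

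The promoters of the 4 genes whose groups did not overlap are printed here, since these genes differed in opposite directions. RefSeq windows of the GRCm38.p6 build, from 250 bases before to 50 bases after the start of transcription, were in hand for 8 of the 10 genes; Bnip3l and Map1lc3a were not matched. Each stretch is printed 5′ to 3′ on the gene's strand and ends before the first annotated transcript starts. Capitals mark GC boxes, the letters GGGCGG on either strand, chosen after the sequences were seen. The stretches are chr4:138326308-138326546 (minus strand) for Pink1, chr8:121590188-121590360 (plus) for Map1lc3b, chr5:110810098-110810331 (minus) for Ulk1 and chr6:129532942-129533159 (plus) for Gabarapl1.
Pink1: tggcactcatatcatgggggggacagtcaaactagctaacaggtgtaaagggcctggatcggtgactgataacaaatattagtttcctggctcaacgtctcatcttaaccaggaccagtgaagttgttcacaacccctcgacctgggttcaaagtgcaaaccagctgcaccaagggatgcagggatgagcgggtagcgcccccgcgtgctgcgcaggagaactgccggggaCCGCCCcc
Map1lc3b: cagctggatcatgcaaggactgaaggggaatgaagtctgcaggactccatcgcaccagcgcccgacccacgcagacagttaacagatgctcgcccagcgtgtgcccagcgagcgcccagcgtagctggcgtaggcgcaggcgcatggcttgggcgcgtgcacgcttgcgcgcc
Ulk1: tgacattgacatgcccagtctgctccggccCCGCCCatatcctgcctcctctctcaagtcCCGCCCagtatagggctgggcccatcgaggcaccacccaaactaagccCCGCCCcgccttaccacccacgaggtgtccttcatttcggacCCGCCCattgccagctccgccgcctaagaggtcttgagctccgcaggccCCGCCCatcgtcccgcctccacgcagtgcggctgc
Gabarapl1: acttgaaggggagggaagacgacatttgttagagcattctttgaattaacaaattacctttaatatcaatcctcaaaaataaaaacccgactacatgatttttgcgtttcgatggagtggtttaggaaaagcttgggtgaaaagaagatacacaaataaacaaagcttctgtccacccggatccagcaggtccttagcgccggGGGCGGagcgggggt

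Ulk1 held 5 GC boxes in the printed stretch, Pink1 and Gabarapl1 1 each, and Map1lc3b 0. The stretches differ in length (239 bases for Pink1, 234 for Ulk1, 218 for Gabarapl1 and 173 for Map1lc3b), so these counts do not compare the genes. Map1lc3b has a GC box from -37 to -32 relative to the RefSeq start, beyond the end of its stretch. Further GC boxes beyond the print lie at -10 to -5 in Gabarapl1 and at 8 to 13 in Pink1. Over the full windows, 7 of 8 genes held a GC box, all of the printed genes among them, as did 35.9% of all 27025 RefSeq promoters searched. Each of 4 other motifs was searched on both strands. The FOXO motif GTAAACA (in 3.55% of all promoters), the E-box TCACGTGA bound by TFEB (1.01%) and the ATF4 motif TGATGNAA (4.06%) were in 0 of the 8 windows. The NRF2 motif TGACNNNGC (12.5% of all promoters) was in 1 window, that of Map1lc3b. A match is a description of letters, and no factor binding was measured.

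To set the 10 genes in their pathway, 81 other genes of mitophagy and autophagy were listed by role, of which 75 passed the filter on low values. Adjusted over all genes, limma called 0 of the 75. Those with an unadjusted p under 0.05 numbered 2 on the higher side in KO (2.67%, where all genes gave 11.5%) and 9 on the lower side (12%, where all genes gave 10.2%). Groups did not overlap for 2 higher genes, 2.67% of the list against 14.5% of all genes. They did not overlap for 15 lower genes, 20% of the list against 13.3% of all genes. The median log2 fold change was -0.14, against 0.03 for all genes. The count of 11 at an unadjusted p under 0.05 was 7 of 75 without WT replicate 1 (12.7% of all genes) or WT replicate 2 (10.6% of all genes). It was 29 of 75 without KO replicate 3, where 35.0% of all genes had such a p. Rescaled to equal total FPKM, it was 14 of 75, all lower in KO. On that scale 12.9% of all genes had such a p as lower in KO, and 3.83% as higher.

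Of those 9 lower genes, 3 act in nucleation and membrane growth and 4 in fusion with the lysosome. Tecpr1, which helps join autophagosomes to lysosomes, was at 18.7, 21.5 and 15.3 FPKM in WT and 8.58, 6.94 and 6.91 FPKM in KO (log2 fold change -1.24, limma adjusted p = 0.0884). Mcoln1, a lysosomal calcium channel, was at 3.60, 5.28 and 4.41 FPKM in WT and 2.35, 2.33 and 2.74 FPKM in KO (-0.72, adjusted p = 0.118). The lysosomal protease gene Ctsb was at 25.1, 25.7 and 26.7 FPKM in WT and 18.005, 15.4 and 19.4 FPKM in KO (-0.55, adjusted p = 0.128). None of these passed the adjusted threshold, and separate groups were a condition for naming them.

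For membrane growth, Atg2a, a lipid transfer protein, was at 7.60, 9.28 and 7.62 FPKM in WT and 5.18, 3.47 and 4.93 FPKM in KO (log2 fold change -0.80, limma adjusted p = 0.110). Atg9a, the lipid scramblase of the vesicles that seed the membrane, had means of 2.87 ± 0.1302 and 1.63 ± 0.367 FPKM (SD, n = 3 each; adjusted p = 0.138). Wdr45, which binds the membrane's phosphoinositide, had means of 7.57 ± 0.689 and 4.91 ± 1.55 FPKM (SD, n = 3 each; adjusted p = 0.206). Separate groups were a condition for naming these 3 genes. Vmp1, a scramblase of the same role, lay on the higher side in KO, at 24.5, 20.4 and 21.8 FPKM in WT and 32.8, 44.04 and 24.4 FPKM in KO (0.56, adjusted p = 0.227). By sign, 13 of the 16 genes of this role were lower in KO, as were 8 of 9 upstream regulators, 3 of 4 of the ULK1 complex and 5 of 7 cargo receptors. In the remaining roles 9 of 16 of fusion and lysosome, 5 of 13 mitophagy genes and 5 of 10 of the ATG8 role were lower. Of all genes, 47.6% were lower.

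In the other roles, 1 gene or none had an unadjusted p under 0.05. Calcoco1, a cargo receptor, was at 14.7, 15.7 and 17.5 FPKM in WT and 5.99, 4.76 and 11.7 FPKM in KO (log2 fold change -1.14, limma adjusted p = 0.124). KO replicate 3 was again the KO sample closest to WT. Foxo1, a transcription factor of quiescent T cells that is known to act on autophagy genes, was at 13.1, 13.6 and 9.24 FPKM in WT and 7.62, 6.60 and 7.64 FPKM in KO (-0.66, adjusted p = 0.131). Pgam5, a mitochondrial phosphatase that acts on FUNDC1, was higher in each KO sample, at 5.35, 5.87 and 7.22 FPKM in WT and 9.21, 8.25 and 9.597 FPKM in KO (0.52, adjusted p = 0.153). In the ULK1 complex 0 of 4 other genes had an unadjusted p under 0.05. Its most abundant gene, Atg101, had means of 18.4 ± 1.499 and 25.5 ± 6.92 FPKM (SD, n = 3 each; adjusted p = 0.325), and its KO replicate 3, at 17.6 FPKM, lay inside the WT range.

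**Figure D4:**
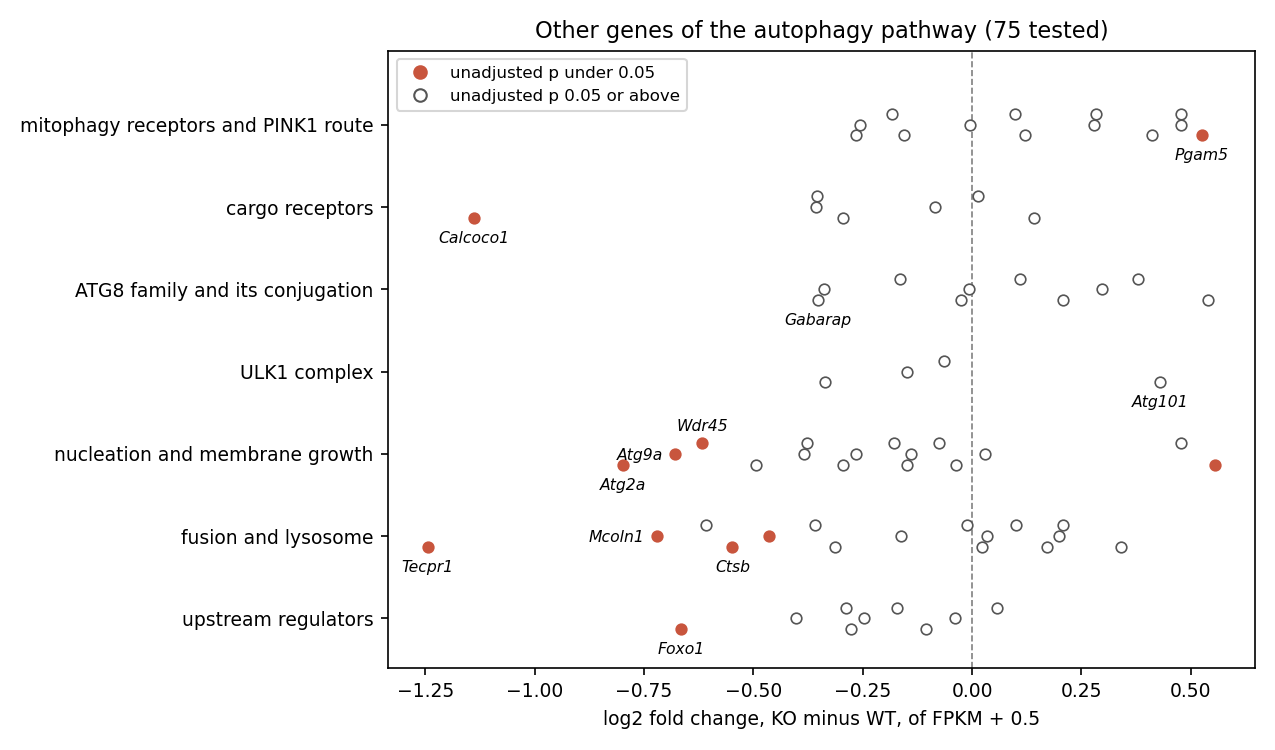
Log2 fold change of FPKM + 0.5 (KO minus WT) of the 75 other pathway genes tested, 1 point each, by role. Filled points have an unadjusted p under 0.05 in limma. Labels mark the genes named from each role by the rule given with the processing, which leaves out Vmp1, Bnip3, Plekhm1, Usp15 and Atg5. Of the filled points, 9 lie below 0 and 2 above, and the largest difference is that of Tecpr1 at -1.24.

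Without KO replicate 3, limma called 9 of the 75 (12%, against 13.7% of all genes). Those called as lower were Tecpr1, Ctsb, Atg2a, Calcoco1 and Plekhm1, and those called as higher were Usp15, Vmp1, Atg5 and Atg101, with adjusted p between 0.0344 and 0.0480. Plekhm1, Usp15, Vmp1 and Atg5 were named after their values were seen.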

How the data were processed

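The kit used for the libraries selects mRNA and keeps strand, per the labels' protocols. The build mm10 and the tools featureCounts 1.5.0-p3, HISAT2 2.0.5, DESeq2 and Trim Galore stand in the submitters' processing notes, with no role or order, and the strand setting of the counting is not given in the sources used here. The authors deposited FPKM values, 1 column per sample, and gene lengths, per the file headers.

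FPKM times length fell on whole multiples of 1 step per library (within 0.05 reads for at least 99.99% of values above 0), from which reads were rebuilt to give depth. Values were fitted as log2(FPKM + 0.5) with limma 3.58.1 in R 4.3.3 (eBayes with a mean-variance trend, genotype only, 2-sided) for genes whose FPKM averaged 0.5 or more, with Benjamini-Hochberg adjustment over all 12654 genes. The steps were tested on simulated counts with 1 fixed setting of spread for all genes and no library that stood apart. That test does not cover the uneven spread of these samples. Coordinates, counted from 1, are those of GENCODE M21 (mm10), in which 54409 identifiers matched. One listed pathway gene is not reported here. The genes and lists were chosen with earlier results of these data known. Named from each role of the pathway list were called genes, otherwise up to 3 with the smallest unadjusted p under 0.05 and separate groups, otherwise the most abundant gene. The name March5, which the table holds as a date, was restored from its identifier. Alternatives covered the pseudocount, filter, scaling, variance model, a replicate block, limma-voom on rebuilt reads and each sample left out. Figures were drawn with matplotlib 3.10.9, and shares were tested with scipy 1.17.1 in Python 3.11.15 with pandas 2.3.3.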

Additional observations from a re-analysis of the deposited data

How the results depend on the processing

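Of the 10 genes, 0 were called when any library but KO replicate 3 was left out, and the range over the libraries left out was 0 to 2. For the pathway list the ranges were 7 to 29 genes at an unadjusted p under 0.05 and 0 to 9 called, while the share of all genes at such a p went from 10.6% to 35.0%. Over all alternatives run, Pink1 (-1.32 to -0.89), Map1lc3b (-1.02 to -0.63) and Ulk1 (-0.86 to -0.53) stayed lower in KO and Gabarapl1 (0.63 to 0.94) higher. The log2 fold change of Fundc1 was -0.032 with equal total FPKM and -0.14 to 0.62 with each library left out. With each library left out, Sqstm1 ranged from -0.26 to 0.11 and Optn from -0.22 to 0.19, so the signs of these 3 genes were not fixed. Shares of rebuilt reads in place of FPKM changed the shift within the ATG8 family to -8.60 percentage points for Map1lc3b, -0.32 for Gabarap and 0.86 for Gabarapl2, because longer genes weigh more in reads. Optn was not tested with a mean FPKM of at least 1. Samples with the same number correlated at 0.13, 0.07 and 0.33 in their deviations from the group means, so the numbers were not taken to pair the samples; WT replicate 2 correlated best with KO replicate 1. With a replicate block, 0 of the 10 genes were called and 4 had an unadjusted p under 0.05, as without it, while the number of all genes called went from 5 to 12. Over all genes, 3 were called with a pseudocount of 1 or with no filter, 14 without the mean-variance trend, 1 with limma-voom on rebuilt reads, 1733 without KO replicate 3 and 2 to 5 with another library left out. The planned sample weights could not be fitted, since their estimation did not converge. Depth limits Optn and Map1lc3a, with 24 and 31 reads in their lowest libraries.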

Other observations

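Bnip3l-ps, a pseudogene that shares sequence with Bnip3l, was at 18.4, 17.7 and 10.4 FPKM in WT and 12.9, 14.3 and 6.27 FPKM in KO, and took 5.65% to 7.58% of the reads of both genes in each library. Gm6055 took 10.2% to 11.5% of the reads it and Map1lc3b held together in WT and 10.6%, 14.4% and 17.5% in KO. Of the 50-base windows of their transcripts, 20.8% of those of Bnip3l and 6.01% of those of Map1lc3b also occur in other genes. Whether reads were assigned to the copy or to the parent was not tested.

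Bnip3, the hypoxia-inducible relative of Bnip3l, varied widely within both groups, at 22.7, 25.6 and 5.03 FPKM in WT and 15.6, 17.6 and 6.26 FPKM in KO. In both groups its lowest sample was the one numbered 3, as it was for Bnip3l. It was singled out after its values were seen.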
